A study of Cucurbita pepo with 18 samples.

Results

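The late step of seed coat development in hull-less pumpkin (Cucurbita pepo) was followed by comparing RNA-seq libraries of seed coats collected at 20 days after pollination (DAP) with those collected at 10 DAP. The comparison used every library that the labels give for the hull-less accession HL at these stages, 3 at 20 DAP and 3 at 10 DAP, which are 6 of the 18 libraries of the series. The other libraries came from HL coats at 5 DAP and from the hulled accession H at 5, 10 and 20 DAP, again with 3 libraries for each stage. No treatment was applied, and the accessions are laboratory-kept parent lines. The study describes HL as carrying a short insertion in CpNST1 that stops translation early, and no table here checks that allele in the libraries of either stage. Each library is labelled as a replicate, and the study states 3 biological replicates for each stage. The number of fruits or plants behind a library is not given in the sources used here, and a single accession stands for the hull-less trait.

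In a hulled pumpkin seed the outer coat builds thick secondary cell walls of cellulose, xylan and lignin, which make the hull. NST1 is a NAC transcription factor that in Arabidopsis switches on this wall programme together with related NAC proteins, which in turn act through MYB factors on the wall enzymes. In a hull-less seed the coat stays thin and soft, and inner layers of a pumpkin seed coat can hold chlorophyll. Other events known from maturing seed coats are the end of cell expansion, the deposition of cuticles and flavonoids, the loss of cell layers through vacuolar proteases, and the passage of sugars to the growing embryo.

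The 3 libraries of 20 DAP held 17147127 to 18017335 counts each, and the 3 of 10 DAP held 17248634 to 17869638. Levels are given as CPM, the counts of a gene scaled to a fixed library total, scaled between libraries by the trimmed mean of M-values. Seed coat marker genes were present at both stages, with a summed level of 1681 to 1898 CPM at 20 DAP and 1129 to 1238 CPM at 10 DAP over 9 genes. Of the 7 that could be tested, 2 were higher at 20 DAP and 2 lower. The leading one, the SEEDSTICK-type gene Cp4.1LG02g10680 (AGL11), had 1321, 1350 and 1435 CPM at 20 DAP, against 836, 708 and 838 CPM at 10 DAP, a log2 fold change of 0.81 that lay under the fold limit of the test used below. TTG1 (Cp4.1LG14g07030), a regulator of seed coat tannins in Arabidopsis, had 13.2, 13.4 and 29.1 CPM at 20 DAP, against 81.9, 78.9 and 89.3 CPM at 10 DAP, and a GLABRA 2 gene (Cp4.1LG02g14580) had 0.773, 0.519 and 0.329 CPM, against 4.54, 10.3 and 4.05 CPM. Both were lower by that test. The 2 higher members were WRKY44 (Cp4.1LG03g02050), described below, and an anthocyanidin reductase gene (Cp4.1LG14g00070). That reductase gene had 7.97, 6.12 and 7.10 CPM at 20 DAP, against 0.951, 1.42 and 0.975 CPM at 10 DAP. GLABRA 2 and this reductase gene lie outside the rule for named genes and were added after their values were seen. The 10 xylem markers were near 0 in all 6 libraries (0.395 to 1.67 CPM summed at 20 DAP and 0.975 to 1.42 CPM at 10 DAP). The 19 phloem markers summed to 219 to 236 CPM at 20 DAP and 289 to 351 CPM at 10 DAP.

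Several libraries stood apart from their replicates. The 32 embryo and endosperm markers, mostly genes of oleosins and seed storage proteins, summed to 2951 CPM in 20 DAP replicate 1 but to 308 and 165 CPM in replicates 2 and 3, against 277 to 369 CPM at 10 DAP. Most of the 10 DAP sum came from a late embryogenesis abundant gene (Cp4.1LG12g01890, 153 to 222 CPM) and an 11S globulin gene (Cp4.1LG12g01360, 89.2 to 127 CPM). Other members had 0 counts at 10 DAP but were read in all libraries of 20 DAP, such as the 2S albumin gene Cp4.1LG01g08070. In 20 DAP replicate 1, 65 features were at least 10-fold above both other replicates, and in 20 DAP replicate 3, 65 features were at least 10-fold below both others. In 10 DAP replicate 3, 86 features were at least 10-fold below both others, among them genes of vacuolar-processing enzyme gamma (Cp4.1LG18g04270) and of a lipid-transfer protein (Cp4.1LG03g15320). The part of these libraries in each result below was not tested beyond leaving each one out in turn, and the count without 20 DAP replicate 1 is given where the embryo markers moved with a list.

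A small set of genes also behaved as if switched. At 20 DAP, 42 features were at 3 CPM or more in every HL library while they had 3 counts or fewer in every HL library of 5 and 10 DAP, and 45 features showed the opposite. Of all these, 9 were at 3 CPM or more in all 9 hulled libraries, whatever the stage. Cp4.1LG19g03480, a gene without a described protein (LG19, 3068884 to 3069745, minus strand), had 1048, 1068 and 611 CPM in HL coats at 20 DAP, against 0 counts in the 3 HL libraries of 10 DAP. In hulled coats it averaged 193, 559 and 1514 CPM at 5, 10 and 20 DAP. Its neighbour Cp4.1LG19g03500, which encodes a NAK-type protein kinase, had 12.6, 14.5 and 13.5 CPM at 20 DAP and 0 counts at 10 DAP. In the other direction, Cp4.1LG19g06350, a subunit of the mitochondrial inner membrane protease, had 0 counts in each HL library of 20 DAP, against 14.3, 17.1 and 15.2 CPM at 10 DAP. By the same rule, 61 features came on and 12 went off in hulled coats at 20 DAP. Of these, 17 came on and 7 went off at 20 DAP in HL coats as well. No feature switched this way in hulled coats at 20 DAP while staying at 3 CPM or more in all HL libraries. Whether the plants sampled at 20 DAP differed from those sampled earlier cannot be told apart from the stage in these libraries.

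**Figure D1:**
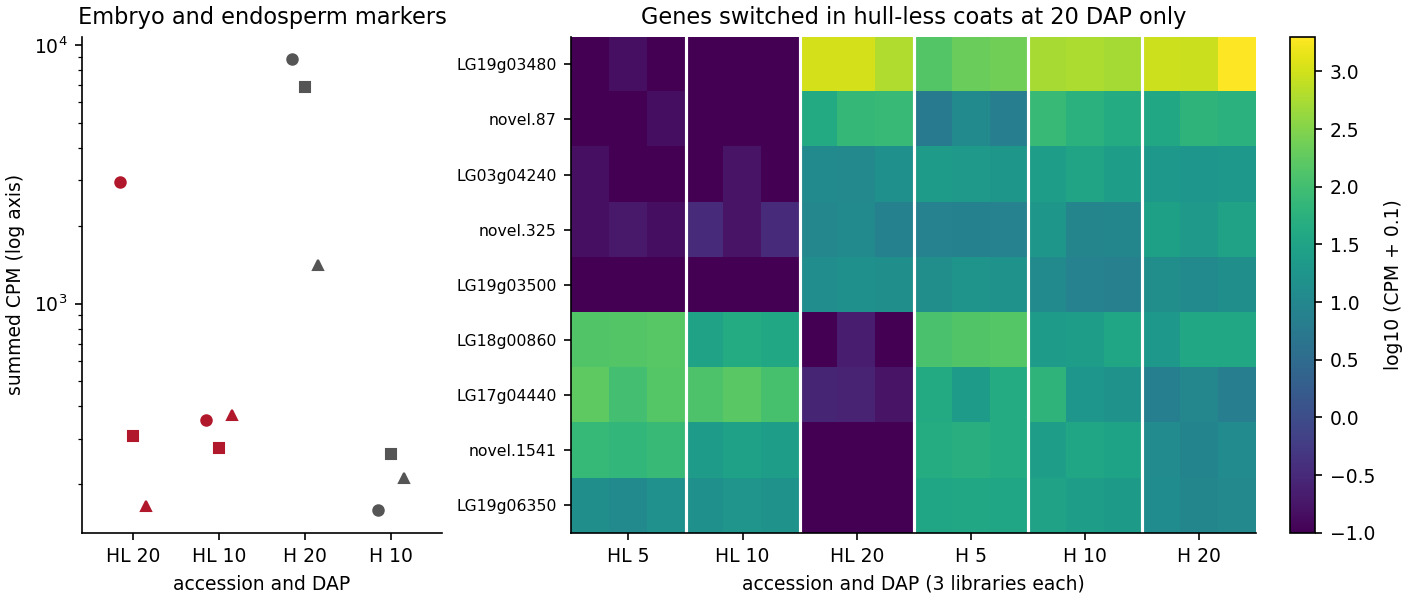
Left: summed level of 32 embryo and endosperm markers in each library of 20 and 10 DAP (CPM, log axis; circle, square and triangle are replicates 1, 2 and 3; HL in red, H in grey), where HL 20 DAP replicate 1 lies at 2951 CPM and its replicates at 308 and 165 CPM. Right: log10 (CPM + 0.1) of the 9 features that switched in HL coats at 20 DAP and were at 3 CPM or more in all 9 hulled libraries, with 3 libraries for each accession and stage.

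Of 29484 features in the count table, 21072 had enough counts to be tested between the stages. A feature was called at an adjusted p of at most 0.05 (edgeR quasi-likelihood test, Benjamini-Hochberg) and a log2 fold change of at least 1 in size. By this rule 3571 features were higher at 20 DAP (16.9% of those tested) and 3767 were lower (17.9%), so that 34.8% changed. These shares of all features are the background for each list count below. The median log2 fold change of all tested features was 0.03. With 20 DAP replicate 1 left out, 3360 features were higher and 3816 lower. Of the 7338 features called, 5831 were also called in each of the 6 fits that left out 1 library. The change was large for many: among called features with a mean of at least 100 counts and no overlap between the stages, 259 were higher and 307 lower by a log2 fold change of 4 or more. Because these are bulk samples, fewer cells of a type and less RNA per cell cannot be told apart in any of the results.

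**Figure D2:**
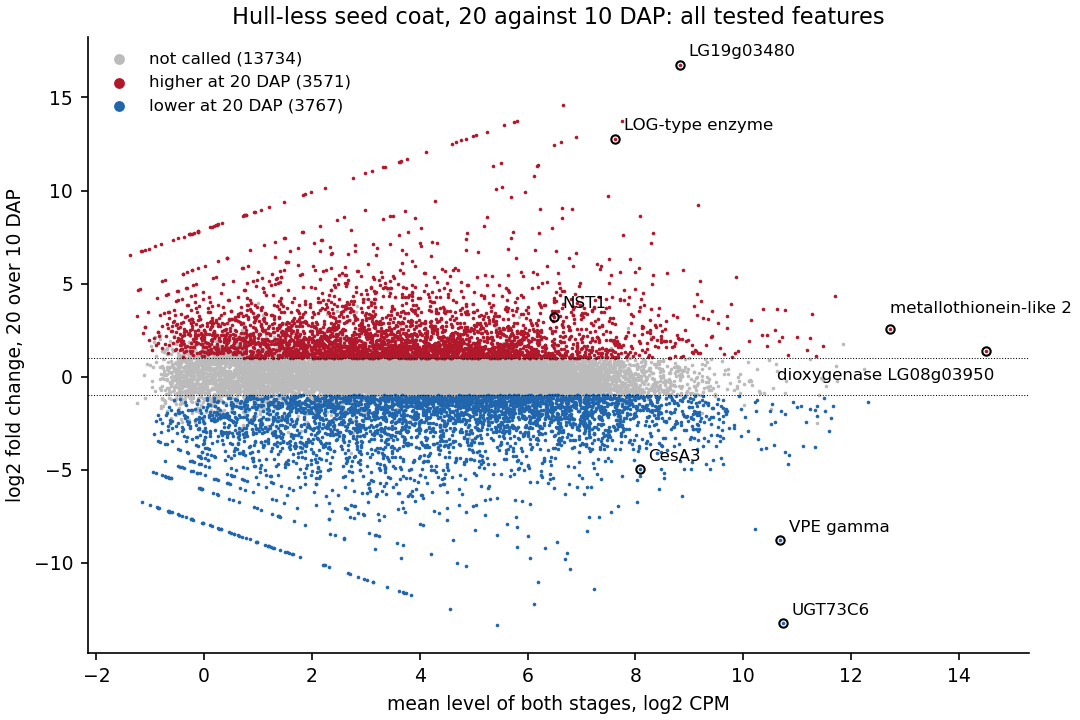
Log2 fold change of 20 over 10 DAP against the mean level of both stages (log2 CPM) for the 21072 tested features in HL coats, with the 3571 higher at 20 DAP in red, the 3767 lower in blue and dotted lines at a log2 fold change of 1 and -1. The straight upper and lower edges are features with 0 counts in every library of one stage, whose fitted fold change depends on the prior count.

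The transcript pool at 20 DAP was led by a gene of sulphur metabolism. Cp4.1LG08g03950 encodes an acireductone dioxygenase, an enzyme of the methionine salvage cycle, and it took 2.85%, 3.20% and 3.25% of all counts in the 20 DAP libraries, against 0.915%, 0.691% and 1.42% in the 10 DAP libraries. Its level was 29112, 33312 and 37720 CPM at 20 DAP, against 11611, 8474 and 19078 CPM at 10 DAP, a log2 fold change of 1.38 ± 0.43 (SE; edgeR adjusted p = 0.030). This call was lost without 10 DAP replicate 1 (adjusted p = 0.076), without 10 DAP replicate 2 (0.10) or without 20 DAP replicate 2 (0.057), although the stages did not overlap. The second gene of the pool was Cp4.1LG03g02250, a metallothionein-like protein of the metal-binding type, with 11238, 11926 and 11251 CPM at 20 DAP and 1903, 1623 and 2496 CPM at 10 DAP. Per length, the dioxygenase gene averaged 28779 FPKM at 20 DAP and the metallothionein gene 11164 FPKM. A salicylate carboxymethyltransferase gene (Cp4.1LG10g00700) followed with 4971 FPKM, and its level was 3909, 4074 and 4802 CPM at 20 DAP, against 1590, 782 and 1853 CPM at 10 DAP.

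Other highly read genes rose more steeply. Cp4.1LG01g03760, a hydroxyproline O-galactosyltransferase (GALT6 type) that starts the sugar chains of arabinogalactan proteins, had 5549, 5980 and 7409 CPM at 20 DAP, against 384, 271 and 295 CPM at 10 DAP, a log2 fold change of 4.35 ± 0.28. Cp4.1LG10g07590, a mitochondrial alanine-glyoxylate aminotransferase homolog, had a log2 fold change of 3.39 ± 0.23, with 4076, 4881 and 4597 CPM at 20 DAP and 404, 399 and 514 CPM at 10 DAP. Among the genes that led at 10 DAP, several fell. Cp4.1LG07g01240, an EXORDIUM protein linked to brassinosteroid-promoted growth in Arabidopsis, had 445, 196 and 371 CPM at 20 DAP, against 4012, 4136 and 6225 CPM at 10 DAP, and Cp4.1LG05g13780, an EARLY-RESPONSIVE TO DEHYDRATION 7 protein, had 523, 266 and 1351 CPM, against 4749, 4587 and 7016 CPM. The aspartic proteinase gene Cp4.1LG10g09860 shows the spread at 10 DAP: it had 4903, 4335 and 7792 CPM at 20 DAP and 3531, 1591 and 77.6 CPM at 10 DAP, and it did not pass the test (log2 fold change 1.74, edgeR adjusted p = 0.20).

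Some genes were read at only 1 of the stages. Cp4.1LG03g15310, a non-specific lipid-transfer protein 2, had 259, 287 and 60.8 CPM at 20 DAP and 0 counts in every 10 DAP library, which makes it at least 922-fold higher against a floor of 3 counts for each library. The undescribed gene Cp4.1LG16g04620 had 80.2, 60.9 and 85.6 CPM at 20 DAP and 0 counts at 10 DAP (at least 345-fold higher). Genes lost by 20 DAP included Cp4.1LG14g04630, a trypsin inhibitor with 0 counts in every 20 DAP library, against 189, 34.2 and 35.4 CPM at 10 DAP (at least 470-fold lower). Cp4.1LG02g03220, a WAT1-related membrane protein, was likewise at 0 counts at 20 DAP, against 72.7, 43.1 and 25.6 CPM (at least 257-fold lower). Cp4.1LG08g10720, a UDP-glycosyltransferase of the 73C6 type, fell to 0.416, 0.577 and 0 CPM at 20 DAP, against 5024, 5070 and 142 CPM at 10 DAP. Its lowest 10 DAP value came from replicate 3, and it was called in each fit that left out a library.

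Genes of photosynthesis rose together at 20 DAP. Of 62 tested genes of photosystems and light-harvesting proteins, 48 were higher and 1 was lower, with a median log2 fold change of 2.81, beside a median of 0.03 and 16.9% higher among all features. All 14 tested photosystem I subunits were higher. Cp4.1LG08g04270, which encodes subunit II on the stromal side of photosystem I, had 357, 379 and 457 CPM at 20 DAP, against 21.9, 16.9 and 29.2 CPM at 10 DAP, a log2 fold change of 4.16 ± 0.25 (edgeR adjusted p = 4.5e-05). Of 27 chlorophyll a/b-binding proteins, the antennae that capture light, 24 were higher and none lower, among them Cp4.1LG04g12530 with 889, 837 and 1349 CPM at 20 DAP and 109, 67.1 and 142 CPM at 10 DAP. Photosystem II was less uniform, with 9 of 16 subunits and assembly factors higher and 1 lower. Cp4.1LG13g04750, the 22 kDa protein that protects photosystem II from excess light, had 48.5, 46.6 and 35.8 CPM at 20 DAP and 0.439, 0.853 and 1.27 CPM at 10 DAP. Cp4.1LG17g09650, encoding PSB28, was the member that fell, with 16.2, 12.001 and 11.4 CPM at 20 DAP, against 30.3, 31.4 and 41.8 CPM.

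Of 32 genes of chlorophyll and carotenoid synthesis, 15 were higher and 2 lower (median log2 fold change 0.96). Chlorophyll synthase (Cp4.1LG19g02790), which attaches the phytol tail, had 990, 840 and 1199 CPM at 20 DAP, against 76.02, 61.1 and 88.8 CPM at 10 DAP. The protochlorophyllide reductase gene Cp4.1LG06g07030, for the light-dependent step before it, had a log2 fold change of 4.82 ± 0.27. A glutamyl-tRNA reductase gene (Cp4.1LG15g03980), for the first committed step of the pathway, went the other way with 11.4, 10.4 and 32.6 CPM at 20 DAP and 279, 251 and 257 CPM at 10 DAP. In the Calvin cycle 11 of 23 genes were higher and 3 lower, with sedoheptulose-1,7-bisphosphatase (Cp4.1LG01g11070) at 91.2, 93.4 and 79.3 CPM at 20 DAP and 5.27, 4.83 and 11.2 CPM at 10 DAP. Leaving out 20 DAP replicate 1 left 47 of the photosystem and antenna genes higher and 2 lower, and 2 were also lower without 10 DAP replicate 3 or 20 DAP replicate 3.

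**Figure D3:**
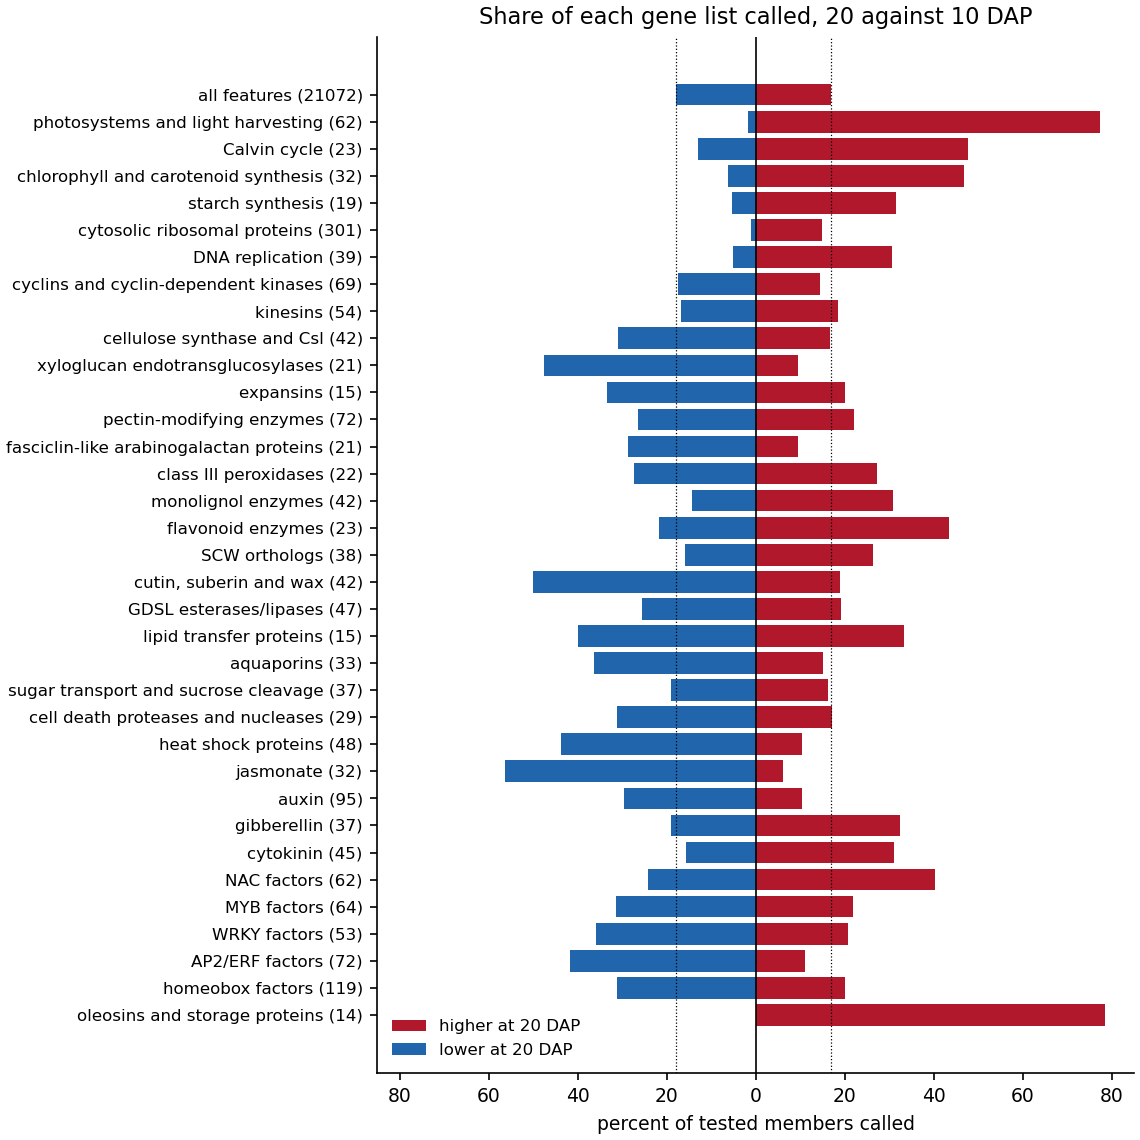
Percent of the tested members of each gene list that were higher (red, right) or lower (blue, left) at 20 than at 10 DAP in HL coats, with the number tested in parentheses and dotted lines at the shares of all features (16.9% higher and 17.9% lower). Photosystem and antenna genes lie far to the right, whereas jasmonate, cuticle and xyloglucan genes lie to the left.

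The question that the series asks of secondary wall synthesis was followed over the study's list of 68 pumpkin orthologs of Arabidopsis secondary wall genes. Only 38 of them had enough counts to be tested in HL coats, and of the other 30, 26 stayed at 1 CPM or less in all 6 libraries. Of the 38, 10 were higher at 20 DAP, 6 were lower and the median log2 fold change was 0.19, so that 26.3% were higher and 15.8% lower, beside 16.9% and 17.9% of all features. Among the NAC switches only CpNST1 and the SND2 ortholog could be tested out of 17 listed. CpNST1 (Cp4.1LG12g04350; LG12, 3411999 to 3413380, plus strand) had 141, 156 and 188 CPM at 20 DAP, against 14.2, 13.3 and 25.3 CPM at 10 DAP, with no overlap. Its log2 fold change was 3.23 ± 0.28 (edgeR adjusted p = 0.00016), and it was called in each fit that left out a library. At 5, 10 and 20 DAP it averaged 0.716, 17.6 and 162 CPM in HL coats. These counts say nothing of the allele or of the protein.

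Of the 6 MYB and other factors of the list that could be tested, 3 were higher and 1 was lower. Cp4.1LG18g08610, described as a MYB86 factor, is listed as the shared ortholog of MYB103, MYB20, MYB26, MYB32, MYB4, MYB42, MYB43, MYB7 and MYB85. It is called MYB103-type below after the first of these names, which does not single out MYB103. This gene had 44.3, 26.1 and 49.8 CPM at 20 DAP and 2.93, 1.71 and 4.65 CPM at 10 DAP, a log2 fold change of 3.72 ± 0.40. KNAT7 (Cp4.1LG05g03900), a homeobox regulator of wall thickening, had 49.3, 49.1 and 49.6 CPM at 20 DAP and 21.0, 27.3 and 23.7 CPM at 10 DAP. Its log2 fold change of 1.07 lay just over the limit and fell to 0.98 without 10 DAP replicate 1. The MYB46 ortholog (Cp4.1LG16g08960), a target of NST1 in Arabidopsis, had 0 counts in all 6 libraries, and the ortholog shared by MYB58 and MYB63 (Cp4.1LG16g07120) had 0 counts at 20 DAP and 1, 1 and 0 counts at 10 DAP, so that neither could be tested. Both lie outside the rule for named genes and were added after their values were seen. REVOLUTA (Cp4.1LG16g05410), a homeodomain-leucine zipper factor of fibre and organ patterning, fell to 11.1, 11.8 and 4.87 CPM at 20 DAP, against 52.5, 41.5 and 33.8 CPM at 10 DAP.

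The cellulose synthases of the secondary wall were not called higher. CesA4 (Cp4.1LG12g10230) had 15.2, 13.2 and 12.8 CPM at 20 DAP and 20.0, 20.5 and 16.3 CPM at 10 DAP, a log2 fold change of -0.44 ± 0.15 that stayed under the fold limit (adjusted p = 0.039). CesA7 (Cp4.1LG00g03460) had 0.476, 0.404 and 0.197 CPM at 20 DAP and 0.366, 0.640 and 0.825 CPM at 10 DAP, and CesA8 (Cp4.1LG20g04780) had 0.714, 0.115 and 0.197 CPM at 20 DAP and 0.0732, 0.213 and 0.225 CPM at 10 DAP. Both lay too low to be tested. Of the 5 cellulose orthologs tested, only the chitinase-like gene CTL2 (Cp4.1LG03g11750) was called, at a log2 fold change of 1.03, and this call was lost with size factors of the RLE kind (0.99) and without 10 DAP replicate 3, 20 DAP replicate 1 or 20 DAP replicate 2.

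In lignin synthesis 3 of 8 tested orthologs were higher and none lower. CAD3 (Cp4.1LG14g04430), a cinnamyl alcohol dehydrogenase of the last step of monolignol synthesis, had 255, 314 and 332 CPM at 20 DAP and 102, 82.8 and 80.9 CPM at 10 DAP, a log2 fold change of 1.79 ± 0.16. C3H1 (Cp4.1LG03g08700), the hydroxylase of the coumaroyl ester, had 21.4, 24.0 and 41.8 CPM at 20 DAP and 4.24, 7.82 and 5.70 CPM at 10 DAP. CCR1 (Cp4.1LG03g08920), a cinnamoyl-CoA reductase, was low but present at 20 DAP (4.94, 4.04 and 1.18 CPM) and at 0 counts at 10 DAP, at least 15.4-fold higher.

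Xylan genes split. GUX3 (Cp4.1LG01g20960), which adds glucuronic acid to xylan, had 93.0, 103 and 109 CPM at 20 DAP, against 27.5, 28.8 and 29.5 CPM at 10 DAP. IRX9H (Cp4.1LG02g03720), a xylan chain synthase subunit, had 21.5, 22.7 and 22.2 CPM at 20 DAP, against 50.1, 52.0 and 69.3 CPM at 10 DAP. The acetylation gene RWA2 (Cp4.1LG20g05290) had a log2 fold change of -1.01, a call that was lost without 10 DAP replicate 2 or 3 or without 20 DAP replicate 3. F8H/FRA8 (Cp4.1LG16g04950) was low at both stages, with 0.595, 0.115 and 0.132 CPM at 20 DAP and 0.951, 1.71 and 1.80 CPM at 10 DAP, and its call was lost without 10 DAP replicate 2 or 3 or without 20 DAP replicate 2 or 3. The steepest fall of the list was that of MIDD1 (Cp4.1LG10g04920), a microtubule-associated partner of ROP GTPases that shapes wall pits in Arabidopsis xylem. It had 4.52, 4.097 and 3.22 CPM at 20 DAP, against 169, 192 and 157 CPM at 10 DAP, a log2 fold change of -5.42 ± 0.18 (edgeR adjusted p = 1.3e-05).

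**Figure D4:**
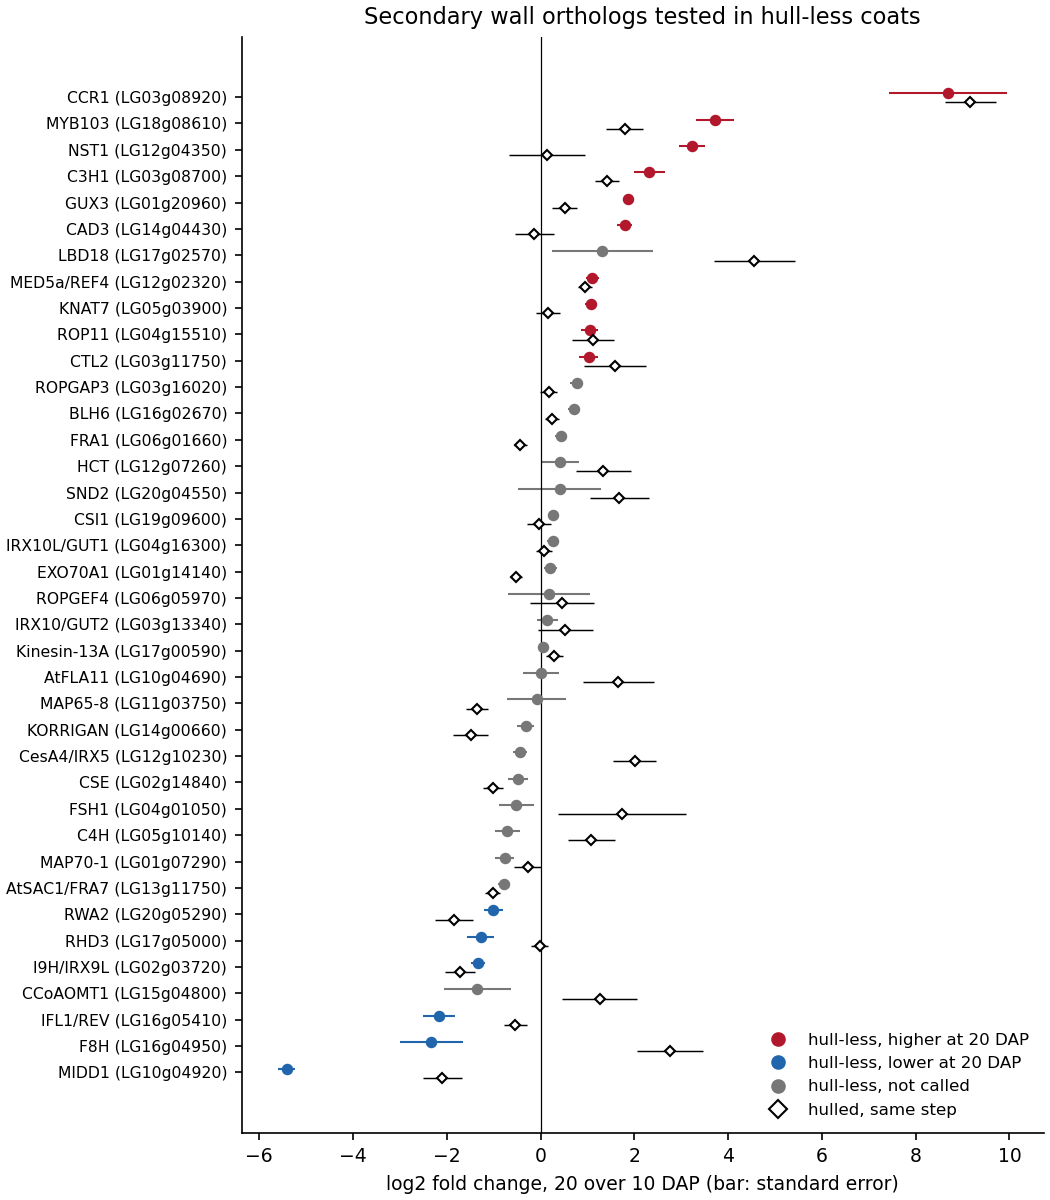
Log2 fold change of 20 over 10 DAP with its standard error for the 38 secondary wall orthologs tested in HL coats (circles, coloured where called), each above the value of the same step in hulled coats (open diamonds). CpNST1 lies at 3.23 in HL coats and at 0.14 in hulled coats, and CesA4 at -0.44 in HL coats and 2.004 in hulled coats.

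Of 42 cellulose synthase and cellulose synthase-like genes, those of both wall types included, 13 were lower (31.0%) and 7 higher (16.7%), beside 17.9% and 16.9% of all features, and 4 were higher without 20 DAP replicate 2. The CesA3 gene Cp4.1LG17g08020, for a subunit of the primary wall complex, had 14.6, 22.1 and 12.4 CPM at 20 DAP, against 440, 604 and 537 CPM at 10 DAP, a log2 fold change of -4.98 ± 0.28. The CesA1 gene Cp4.1LG06g03510 had 312, 316 and 357 CPM at 20 DAP, against 762, 864 and 1281 CPM at 10 DAP. Cp4.1LG06g02180, a xyloglucan glycosyltransferase for the backbone of that polymer, had 89.6, 41.4 and 38.3 CPM at 20 DAP, against 1260, 1272 and 2005 CPM at 10 DAP. Of 21 xyloglucan endotransglucosylases, which cut and rejoin xyloglucan in growing walls, 10 were lower and 2 higher, and 1 was higher without 10 DAP replicate 1 or 3 or without 20 DAP replicate 1 or 2. Cp4.1LG15g08640 was the most read of them at 10 DAP and had 238, 77.03 and 90.0 CPM at 20 DAP, against 2935, 2996 and 4594 CPM. Cp4.1LG04g13070 had 2.14, 0.981 and 1.32 CPM at 20 DAP, against 201, 262 and 372 CPM.

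Of 15 expansins, 5 were lower (33.3%) and 3 higher (20%), beside 17.9% and 16.9% of all features. Cp4.1LG13g07620 (expansin A8 type) had 186, 266 and 74.8 CPM at 20 DAP, against 7.10, 9.03 and 6.52 CPM at 10 DAP, whereas the expansin-like B1 gene Cp4.1LG05g02200 had 0 counts at 20 DAP, against 51.3, 23.4 and 10.5 CPM (at least 155-fold lower). Of 72 pectin-modifying enzymes, 16 were higher (22.2%) and 19 lower (26.4%) with a median log2 fold change of 0.01. The pectinesterase gene Cp4.1LG12g09640 had 1018, 881 and 1506 CPM at 20 DAP, against 10.7, 2.70 and 86.2 CPM at 10 DAP, and the polygalacturonase gene Cp4.1LG01g15450 had 61.8, 54.4 and 104 CPM, against 2.63, 2.84 and 1.87 CPM. Of 21 fasciclin-like arabinogalactan proteins, 6 were lower (28.6%) and 2 higher (9.5%). Of 22 class III peroxidases, 6 were higher and 6 lower (27.3% each), with Peroxidase 10 (Cp4.1LG10g02630) at 206, 267 and 247 CPM at 20 DAP and 10.2, 6.75 and 8.25 CPM at 10 DAP.

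**Figure D5:**
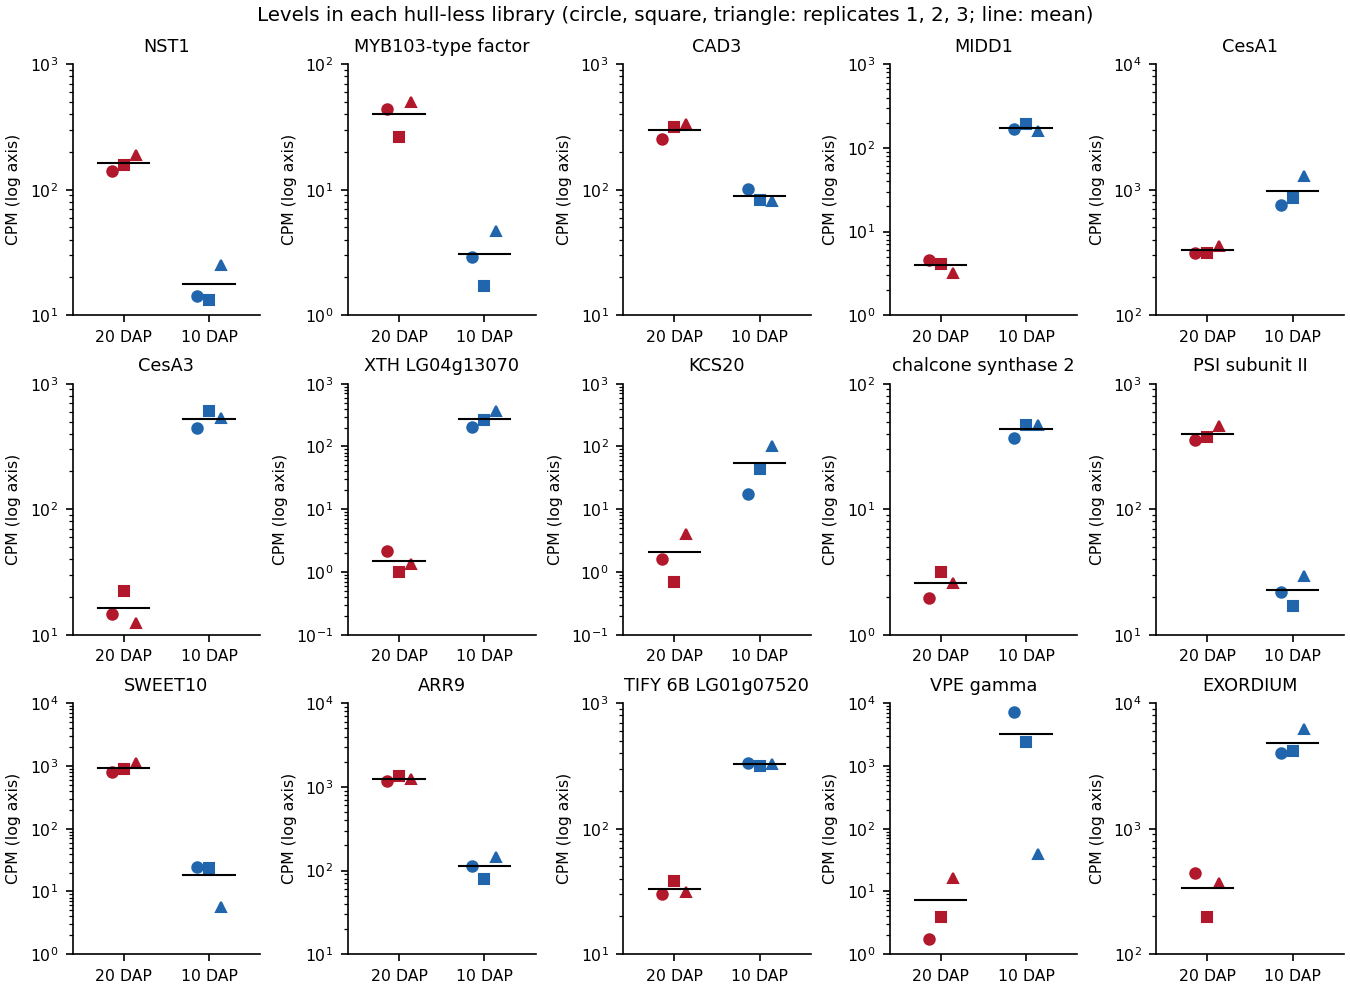
Level of 15 genes in each HL library (CPM, log axis), with 20 DAP in red, left of 10 DAP in blue, replicates 1, 2 and 3 as circle, square and triangle and a line at the mean. The stages do not overlap in any panel, and 10 DAP replicate 3 lies below its replicates for VPE gamma (39.6 CPM) and SWEET10 (5.55 CPM).

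Of 42 genes of cutin, suberin and wax synthesis, 21 were lower (50%, beside 17.9% of all features) and 8 higher (19.05%, near the 16.9% of all), with a median log2 fold change of -1.41. The summed level of the 65 listed genes went the other way. It was 2523, 2406 and 3987 CPM at 20 DAP, against 1065, 1512 and 1789 CPM at 10 DAP. ECERIFERUM 1 (Cp4.1LG02g03940) and ECERIFERUM 3 (Cp4.1LG04g12660), which act together in making wax alkanes, fell to 0.238, 0.0577 and 0 CPM and to 0.535, 0.0577 and 0 CPM at 20 DAP, against 25.4, 22.8 and 11.7 CPM and 37.02, 54.5 and 44.1 CPM at 10 DAP. GPAT6 (Cp4.1LG08g12140), an acyltransferase of cutin synthesis, had 0.0595, 0.115 and 0.132 CPM at 20 DAP, against 13.1, 111 and 22.4 CPM at 10 DAP. In contrast GPAT5 (Cp4.1LG01g10800), an acyltransferase of suberin synthesis that acts in Arabidopsis seed coats, had 133, 130 and 150 CPM at 20 DAP, against 19.1, 14.01 and 22.7 CPM at 10 DAP, a log2 fold change of 2.91 ± 0.19. An elongase of very-long-chain fatty acids, 3-ketoacyl-CoA synthase 4 (Cp4.1LG07g04340), had 597, 616 and 630 CPM at 20 DAP, against 82.8, 78.4 and 108 CPM.

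Lipid-transfer proteins, small secreted proteins that bind lipids, moved steeply both ways, with 5 of 15 higher (33.3%) and 6 lower (40%). Of neighbouring genes on LG03, Cp4.1LG03g15250 had 295, 347 and 73.7 CPM at 20 DAP, against 0, 0 and 0.0750 CPM at 10 DAP, while Cp4.1LG03g15320 had 12.8, 7.85 and 3.03 CPM at 20 DAP, against 3962, 3120 and 36.3 CPM. The gene that rose was lowest in 20 DAP replicate 3. The genes share an annotation, and reads of close copies could be split between them, so their separate values are uncertain. Of 47 GDSL esterases and lipases, 9 were higher (19.1%) and 12 lower (25.5%), beside 16.9% and 17.9% of all features. Without 20 DAP replicate 1 the lipid-transfer counts were 5 higher and 6 lower, and without 20 DAP replicate 3, 10 were higher.

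Of 23 flavonoid enzymes, 10 were higher and 5 lower (median log2 fold change 0.37), and 3 were lower without 10 DAP replicate 2 or 3 or without 20 DAP replicate 1 or 2. Chalcone synthase 2 (Cp4.1LG03g06560), the entry enzyme, fell to 1.96, 3.17 and 2.56 CPM at 20 DAP, against 36.7, 47.3 and 47.1 CPM at 10 DAP. Chalcone isomerase (Cp4.1LG13g09600), the next step, had 36.997, 38.8 and 52.7 CPM at 20 DAP, against 11.9, 8.89 and 10.2 CPM. A glucosyltransferase of the flavonoid 3-O type (Cp4.1LG02g02340) had 738, 646 and 861 CPM at 20 DAP, against 14.9, 15.9 and 18.1 CPM, a log2 fold change of 5.55 ± 0.20. Anthocyanidin reductase (Cp4.1LG02g07070), the BANYULS enzyme of seed coat tannins, had 289, 339 and 387 CPM at 20 DAP and 302, 306 and 196 CPM at 10 DAP, with overlap (adjusted p = 0.18). Another anthocyanidin reductase gene (Cp4.1LG14g00070), read at a far lower level, was called higher at a log2 fold change of 2.68. Of 42 genes named for monolignol enzymes, 13 were higher (31.0%) and 6 lower (14.3%), with a shikimate hydroxycinnamoyltransferase (Cp4.1LG07g08290) at 4.28, 20.8 and 15.8 CPM at 20 DAP and 132, 283 and 493 CPM at 10 DAP.

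Of 301 cytosolic ribosomal proteins, 45 were higher (14.95%) and 3 lower (1.00%), beside 16.9% and 17.9% of all features. Their median log2 fold change was 0.55, and 7 were lower without 20 DAP replicate 1. Without the fold limit, 189 were higher and 11 lower, beside 6133 and 5912 of the 21072 features tested. Cp4.1LG07g08830 (60S protein L18) was the steepest, with 405, 439 and 775 CPM at 20 DAP and 28.9, 31.4 and 12.2 CPM at 10 DAP. In DNA replication 12 of 39 genes were higher (30.8%) and 2 lower (5.1%), and without 20 DAP replicate 1 the counts were 8 and 2. The count lower was 1 without 10 DAP replicate 1, 20 DAP replicate 2 or 20 DAP replicate 3. A large subunit of ribonucleotide reductase (Cp4.1LG19g11890), which supplies DNA precursors, had 44.3, 32.5 and 41.7 CPM at 20 DAP, against 1.54, 1.99 and 1.27 CPM at 10 DAP.

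Cell cycle lists lay near the shares of all features (16.9% higher and 17.9% lower). Of 69 cyclins and cyclin-dependent kinases, 10 were higher (14.5%) and 12 lower (17.4%), and of 54 kinesins, the microtubule motors used in division and transport, 10 were higher (18.5%) and 9 lower (16.7%). Cyclin A3-4 (Cp4.1LG02g06570) had 42.9, 34.6 and 32.6 CPM at 20 DAP and 5.12, 6.33 and 8.32 CPM at 10 DAP. The kinesin gene Cp4.1LG00g10460 (KIN-14S) had 0.297, 0.635 and 0.460 CPM at 20 DAP, against 21.7, 19.6 and 22.7 CPM at 10 DAP. Of 40 core histones, 6 were higher and 6 lower (15% each), but 3 were higher and 8 lower without 20 DAP replicate 1, 3 were higher without 20 DAP replicate 2 and 3 were lower without 10 DAP replicate 1.

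Proteases linked to cell death were marked by the spread of 10 DAP replicate 3. Of 29 such proteases and nucleases, 9 were lower (31.0%) and 5 higher (17.2%), beside 17.9% and 16.9% of all features. Vacuolar-processing enzyme gamma (Cp4.1LG18g04270), a caspase-like protease that matures other vacuolar enzymes, had 1.72, 3.98 and 16.2 CPM at 20 DAP, against 7361, 2454 and 39.6 CPM at 10 DAP. The log2 fold change was -8.79 ± 2.005 (edgeR adjusted p = 0.0084). A steadier fall was that of Cp4.1LG02g06840, a cysteine proteinase of the RD21A type, with 14.7, 30.7 and 19.5 CPM at 20 DAP and 798, 555 and 726 CPM at 10 DAP. Of 48 heat shock proteins, 21 were lower (43.75%) and 5 higher (10.4%), with a median log2 fold change of -0.71. They included the class II small protein Cp4.1LG02g05840 with 14.4, 10.96 and 13.2 CPM at 20 DAP, against 90.1, 99.5 and 139 CPM at 10 DAP. The mitochondrial 23.6 kDa protein Cp4.1LG08g07390 rose, with 168, 149 and 192 CPM, against 9.07, 10.2 and 13.5 CPM.

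Among the hormone lists, the share lower was largest for jasmonate. Of 32 genes of jasmonate synthesis and response, 18 were lower (56.25%) and 2 higher (6.25%), with a median log2 fold change of -1.36. Allene oxide synthase 1 (Cp4.1LG11g01710), an early enzyme of synthesis, had 3.27, 3.87 and 16.8 CPM at 20 DAP, against 372, 193 and 345 CPM at 10 DAP. Lipoxygenase 6 (Cp4.1LG01g16060), which acts before it, had 15.4, 25.8 and 23.3 CPM at 20 DAP, against 347, 255 and 360 CPM. The repressor genes named TIFY 6B parted, with Cp4.1LG01g07520 at 29.9, 38.6 and 31.1 CPM at 20 DAP and 334, 314 and 328 CPM at 10 DAP, and Cp4.1LG01g06150 at 265, 309 and 278 CPM and 38.9, 21.3 and 39.8 CPM. Without 20 DAP replicate 1 the list had 18 lower and 3 higher, and the count higher was 5 without 10 DAP replicate 1 and 4 without 20 DAP replicate 3.

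In the auxin list 28 of 95 genes were lower (29.5%) and 10 higher (10.5%), and 16 were higher without 20 DAP replicate 3. The influx carrier gene Cp4.1LG19g02880 had 0.416, 0.577 and 0.0658 CPM at 20 DAP, against 47.3, 58.0 and 66.7 CPM at 10 DAP, a log2 fold change of -7.24 ± 0.41. Auxin response factor 4 (Cp4.1LG16g05510) rose, with 79.0, 80.3 and 67.6 CPM at 20 DAP and 14.6, 17.1 and 9.97 CPM at 10 DAP. Among 30 abscisic acid genes, 5 were higher (16.7%, near the 16.9% of all features) and 8 lower (26.7%), and 8 were higher without 20 DAP replicate 3. The hydroxylase that breaks down abscisic acid (Cp4.1LG14g02890) had 125, 105 and 150 CPM at 20 DAP, against 1381, 1212 and 1603 CPM at 10 DAP, while a PYL1-type receptor (Cp4.1LG08g08470) had 71.7, 73.6 and 110 CPM, against 2.63, 3.06 and 2.85 CPM.

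In the cytokinin list 14 of 45 genes were higher (31.1%) and 7 lower (15.6%), 11 were higher and 11 lower without 20 DAP replicate 1, and 9 were higher without 20 DAP replicate 2. The LOG-type phosphoribohydrolase Cp4.1LG08g09720, which releases active cytokinin, had 374, 329 and 482 CPM at 20 DAP, against 0.0732, 0 and 0.0750 CPM at 10 DAP. With 2 counts in all at 10 DAP, the ratio of the stages was 8043 with an exact 95% counting interval of 2226 to 66417, which covers counting error only. The response regulator ARR9 (Cp4.1LG01g20550), a target and damper of cytokinin signalling, had 1170, 1357 and 1243 CPM at 20 DAP, against 112, 79.8 and 147 CPM. Of 37 gibberellin genes, 12 were higher (32.4%) and 7 lower (18.9%), and the count higher was 19 without 10 DAP replicate 1 and 20 without 20 DAP replicate 3. They included the DELLA repressor gene Cp4.1LG13g05240 with 439, 563 and 247 CPM at 20 DAP and 96.5, 88.1 and 83.4 CPM at 10 DAP. A pair of gibberellin 20-oxidase genes (Cp4.1LG09g01310 and Cp4.1LG09g01290), for synthesis, had 207, 86.8 and 13.4 CPM and 474, 237 and 36.7 CPM at 20 DAP, highest in replicate 1. Their calls were lost without 20 DAP replicate 1 (edgeR adjusted p = 0.050 and 0.076) and without 10 DAP replicate 2 or 3, and that of Cp4.1LG09g01290 also without 20 DAP replicate 2.

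Among transcription factors, the NAC family had 25 of 62 members higher and 15 lower, a share of 40.3% higher beside 16.9% of all features. Cp4.1LG10g05110 (NAC10) had 36.0, 39.2 and 41.0 CPM at 20 DAP, against 0.146, 0 and 0 CPM at 10 DAP, and Cp4.1LG04g01650 (NAC79) had 0.297, 0.577 and 0.0658 CPM, against 203, 113 and 68.4 CPM. AP2/ERF factors had 30 of 72 lower (41.7%) and 8 higher (11.1%), with a median log2 fold change of -0.75. The genes of this family that fell include dehydration-responsive element-binding proteins, which act in stress responses, such as Cp4.1LG05g06700 with 54.5, 30.0035 and 40.3 CPM at 20 DAP and 859, 845 and 1334 CPM at 10 DAP. Of 53 WRKY factors, 19 were lower (35.8%) and 11 higher (20.8%). One that rose was Cp4.1LG03g02050 (WRKY44, the TTG2 factor of Arabidopsis seed coats), with 13.9, 10.3 and 13.2 CPM at 20 DAP and 1.32, 0.924 and 1.05 CPM at 10 DAP.

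MYB factors had 20 of 64 lower (31.25%) and 14 higher (21.9%), beside 17.9% and 16.9% of all features. Genes named MYB44 lay on both sides, with Cp4.1LG05g11780 at 11.9, 17.02 and 12.04 CPM at 20 DAP and 265, 247 and 188 CPM at 10 DAP, and Cp4.1LG01g02340 at 18.3, 14.7 and 3.03 CPM and 0.658, 0.213 and 0.375 CPM. Of 119 homeobox factors, 37 were lower (31.1%) and 24 higher (20.2%). ATHB-20 (Cp4.1LG01g22890) had a log2 fold change of -8.52 and was at 0.178, 0.288 and 0.197 CPM at 20 DAP, against 85.01, 95.1 and 79.0 CPM at 10 DAP. Among 26 MADS-box factors, 5 were lower (19.2%) and 4 higher (15.4%), near the shares of all features. FBP24 (Cp4.1LG10g06750), whose petunia counterpart belongs to the B-sister group of seed coat regulators, had 0.297, 0.115 and 0.460 CPM at 20 DAP, against 284, 314 and 35.8 CPM at 10 DAP.

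Of 37 genes of sugar transport and sucrose cleavage, 6 were higher (16.2%) and 7 lower (18.9%), near the shares of all features, and 11 were lower without 10 DAP replicate 3. SWEET10 (Cp4.1LG18g09250), a sugar exporter of the plasma membrane, had 789, 883 and 1113 CPM at 20 DAP, against 24.9, 23.8 and 5.55 CPM at 10 DAP, a log2 fold change of 5.71 ± 0.61. SWEET12 (Cp4.1LG18g09230), close to it on LG18, had 322, 328 and 212 CPM at 20 DAP, against 16.4, 16.3 and 18.1 CPM, whereas another gene named SWEET12 (Cp4.1LG20g02920) had 0 counts at 20 DAP, against 28.6, 12.7 and 10.9 CPM (at least 95.3-fold lower). The sucrose synthase gene Cp4.1LG18g02810 had 3.39, 2.54 and 3.03 CPM at 20 DAP, against 51.1, 73.8 and 79.4 CPM at 10 DAP. In starch synthesis 6 of 19 genes were higher (31.6%) and 1 lower (5.3%), led by a large subunit of ADP-glucose pyrophosphorylase (Cp4.1LG02g07560) with 202, 204 and 295 CPM at 20 DAP and 12.9, 14.6 and 21.9 CPM at 10 DAP.

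Of 33 aquaporins, the water channels of membranes, 12 were lower (36.4%) and 5 higher (15.2%), beside 17.9% and 16.9% of all features. Cp4.1LG04g04870 (PIP2-7), the most read of them at 10 DAP, had 1240.5, 1868 and 1700 CPM at 20 DAP, against 3951, 4402 and 6185 CPM at 10 DAP. Cp4.1LG13g01550 (PIP1-3) had 13.4, 3.58 and 1.45 CPM at 20 DAP, against 137, 177 and 188 CPM. An aquaporin that rose, Cp4.1LG19g04020 (PIP2-1), had 232, 197 and 89.9 CPM at 20 DAP, against 22.8, 29.9 and 31.2 CPM.

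Genes of oleosins and storage proteins, the oil-body coat and reserve proteins of embryos, had 11 of 14 members higher, none lower and a median log2 fold change of 10.43. The count higher was 7 without 10 DAP replicate 1 and 5 without 10 DAP replicate 2 or 3. The 2S albumin gene Cp4.1LG01g08070 had 302, 28.3 and 3.03 CPM at 20 DAP and 0 counts at 10 DAP, and the 11S globulin gene Cp4.1LG15g00840 had 573, 10.8 and 4.21 CPM, against 0, 0 and 0.0750 CPM. Without 20 DAP replicate 1, 9 members were higher, 2 were lower and the median was 6.70. The list is part of the embryo and endosperm markers, and the part of embryo or endosperm RNA in these coats was not tested.

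The same step in hulled coats gave the comparison for accession. In H, 3147 of 22105 tested features were higher at 20 than at 10 DAP (14.2%) and 2821 were lower (12.8%), and single libraries decided these counts. They were 4821 higher and 4040 lower without H 10 DAP replicate 1, 2082 and 1756 without 10 DAP replicate 3, 2001 and 1523 without 20 DAP replicate 2, and the lower count was 1707 without 20 DAP replicate 1 and 1470 without 20 DAP replicate 3. These libraries are not shared with the HL comparison. Their embryo and endosperm markers summed to 8811, 6895 and 1406 CPM at 20 DAP and to 159 to 262 CPM at 10 DAP. The part of such RNA in the differences between accessions was not tested. Among 20450 features tested in both, 1579 were higher in both accessions, which is 46.01% of the 3432 higher in HL and 63.9% of the 2472 higher in H, and 1750 were lower in both, which is 49.5% of the 3536 lower in HL and 65.7% of the 2664 lower in H. Of all features tested in both, 12.1% were higher and 13.03% lower in H. The directions were opposite for 31 features higher in HL and lower in H and for 71 lower in HL and higher in H. When the difference itself was tested, 1220 of 24259 features had a more positive change in HL (5.03%) and 1451 a more negative one (5.98%).

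For CpNST1 the step differed in value but not beyond the threshold. Its log2 fold change was 3.23 ± 0.28 in HL and 0.14 ± 0.80 in H, where the mean level was 33.8 ± 7.57 CPM at 20 DAP and 30.6 ± 27.3 CPM at 10 DAP (SD, n = 3 each), and the difference of 3.05 ± 1.04 had an adjusted p of 0.060 in the edgeR fit of all 18 libraries. CesA4 differed, with -0.44 in HL and 2.004 in H, a difference of -2.47 (adjusted p = 0.0010). For CesA7, which was tested only where H libraries entered the fit, the difference was -3.80 (edgeR adjusted p = 0.024), a call that was lost without HL 10 DAP replicate 2 (0.059), without HL 10 DAP replicate 3 (0.073) or without HL 20 DAP replicate 3 (0.057). Of 59 orthologs of the list tested for the difference, 4 were more positive in HL and 8 more negative. CAD3 and GUX3 had more positive changes in HL by 1.89 and 1.31 on the log2 scale, as did the MYB103-type gene by 1.905 (edgeR adjusted p = 0.037), while MIDD1 had a difference of -3.35. The call of the MYB103-type gene was lost with the 12 libraries of 10 and 20 DAP alone (0.073) and in the fits that left out a library, other than those without HL 10 DAP replicate 3, HL 20 DAP replicate 2 or H 10 DAP replicate 1. The lignin genes C4H (Cp4.1LG05g10140, -1.83) and LAC11 (Cp4.1LG18g01310, -4.42) had more negative changes in HL and the cellulose gene KORRIGAN (Cp4.1LG14g00660) a more positive one (1.14). These 3 lie outside the rule for named genes and were added after their values were seen. Their calls were lost in 7, 10 and 10 of the fits that left out a library, with edgeR adjusted p of 0.050 to 0.077 for C4H, 0.051 to 0.12 for LAC11 and 0.063 to 0.10 for KORRIGAN.

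Photosystem and antenna genes rose in hulled coats as well, with 36 of 60 tested higher, 1 lower and a median log2 fold change of 1.83. Of all features tested in H, 14.2% were higher and 12.8% lower. Photosystem I subunits had 13 of 15 higher in H. Of 65 photosystem and antenna genes tested for the difference, 15 had a more positive change in HL and 3 a more negative one, beside 5.03% and 5.98% of all features. Of 16 photosystem I subunits, 3 were more positive in HL and 0 more negative. The 22 kDa protein of photosystem II (Cp4.1LG13g04750) had a log2 fold change of 5.69 in HL and 1.32 in H. Of 82 kinesins, 1 was more positive and 11 were more negative in HL. In H alone, 35 of 74 tested kinesins were higher and 3 lower, beside 14.2% and 12.8% of all features in H. The H libraries of 10 DAP were spread for this list. Its summed level was 1516, 1314 and 1331 CPM at 20 DAP and 1536, 835 and 1094 CPM at 10 DAP, with overlap. KIN-14I (Cp4.1LG02g16330) had a log2 fold change of -3.39 in HL and 1.91 in H, a difference of -5.33. Outside the lists, a chloroplast isoprenoid enzyme gene (Cp4.1LG01g00230) had 86.2, 86.7 and 82.6 CPM in HL at 20 DAP, against 0.0732, 0.0711 and 0.0750 CPM at 10 DAP, and its change exceeded that in H by 9.34. The NAC10 gene Cp4.1LG10g05110 exceeded H by 9.04, and a D-3-phosphoglycerate dehydrogenase gene of serine synthesis (Cp4.1LG02g17550), with 0.416, 0 and 0.329 CPM at 20 DAP and 19.7, 46.9 and 54.9 CPM at 10 DAP, had a difference of -9.03. These genes were near 0 in all HL libraries of 1 stage, as the switched genes were.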

How the data were processed

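Total RNA of seed coats was sequenced on an Illumina HiSeq instrument in 18 libraries, 3 for each accession and stage. The authors mapped clean reads to the zucchini genome of the Cucurbit Genomics Database. The deposited table holds raw read counts per feature, which were tested here, and FPKM values that the authors made with Cufflinks, used here only to compare levels between genes. The counting tool, its version and whether strand was used are not given in the sources used here, so overlapping and antisense genes cannot be separated. Columns and lists of the authors' own comparisons (fold changes, p-values, overlaps and clusters) were not used.

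Samples were grouped by their titles. Counts of the 6 HL libraries were filtered with filterByExpr, scaled by TMM and tested with the edgeR 4.0.16 quasi-likelihood test in R 4.3.3, without covariates. The calling rule combined a p adjusted by Benjamini-Hochberg (0.05 or below) with a log2 fold change of 1 or more in size. SE is the log2 fold change over the root of F. CPM used TMM over all 18 libraries. The same step in H was fitted alone, and the difference between accessions in a fit of all 18 libraries. If the replicates share plants, p-values measure only the spread between these samples. A fold against a stage at 0 used a floor of 3 counts per library. Intervals are exact at 95% and cover counting error only.

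Genes were named by rule: called secondary wall orthologs of the study's list with CpNST1, CesA4, CesA7 and CesA8, the 10 highest and 10 lowest changes with a mean of at least 100 counts and no overlap, up to 4 members a direction and the 2 most read at 20 DAP in each list, the 6 highest and 6 lowest differences between accessions, and the 10 most read genes of each stage. Gene lists were matched on the deposited protein descriptions. The members and lists were chosen with earlier results of these data known. No identifier matched the RefSeq table (0 genes), so no sequences are shown. Alternatives were DESeq2 1.42.0, other scalings and filters, no fold limit, other sets of libraries, a replicate block and leaving out each library. Scripts were tested on simulated data.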

Additional observations from a re-analysis of the deposited data

Results flagged for a closer look

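The change between 10 and 20 DAP was tested for a difference between the accessions in 1 edgeR fit of all 18 libraries, and each value here is the log2 fold change in HL minus that in H. In all, 1220 features had a more positive change in HL and 1451 a more negative one.

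Among genes with the largest differences, several had been switched in HL coats at 20 DAP. The undescribed gene Cp4.1LG19g03480 and a feature outside the annotation differed by 15.5 and 13.34, and the NAK-type kinase gene Cp4.1LG19g03500 by 10.34. A pair of features outside the annotation (-10.32 and -9.74), the undescribed gene Cp4.1LG18g00860 (-9.78) and the mitochondrial protease gene Cp4.1LG19g06350 (-9.80) lay at the other end. Cp4.1LG07g10870, an NADP-dependent glyceraldehyde-3-phosphate dehydrogenase, differed by 9.35, the isoprenoid gene Cp4.1LG01g00230 by 9.34 and the NAC10 gene Cp4.1LG10g05110 by 9.04. The serine synthesis gene Cp4.1LG02g17550 differed by -9.03 and the purple acid phosphatase gene Cp4.1LG04g00990 by -8.34. Whether plants of the HL 20 DAP sample differed from those of earlier stages cannot be told apart from the stage.

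In the secondary wall list, 4 of 59 tested orthologs were more positive and 8 more negative, beside 5.03% and 5.98% of all features. The xylan gene F8H/FRA8 (Cp4.1LG16g04950) differed by -5.12, CesA7 (Cp4.1LG00g03460) by -3.80, MIDD1 (Cp4.1LG10g04920) by -3.35 and CesA4 (Cp4.1LG12g10230) by -2.47. REVOLUTA (Cp4.1LG16g05410) differed by -1.66 and RHD3 (Cp4.1LG17g05000) by -1.30. The lignin genes LAC11 (Cp4.1LG18g01310) and C4H (Cp4.1LG05g10140) differed by -4.42 and -1.83. Positive differences were 1.905 for the MYB103-type gene (Cp4.1LG18g08610), 1.89 for CAD3 (Cp4.1LG14g04430), 1.31 for GUX3 (Cp4.1LG01g20960) and 1.14 for KORRIGAN (Cp4.1LG14g00660). Fits that left out 1 library lost the call of CesA7 in 3 cases, C4H in 7, the MYB103-type gene in 9, and LAC11 and KORRIGAN in 10 each. LAC11 was at 1.07 CPM or less in every HL library of 10 and 20 DAP.

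Of 65 photosystem and antenna genes tested, 15 had a more positive and 3 a more negative change in HL. The list rose in both accessions, with a median log2 fold change of 2.81 in HL and 1.83 in H. Named members were the 22 kDa protein of photosystem II (Cp4.1LG13g04750) at 4.36, the antenna protein P4 (Cp4.1LG04g14870) at 1.68 and PSB28 (Cp4.1LG17g09650) at -1.55. Of 82 kinesins, 1 was more positive and 11 were more negative, among them KIN-14I (Cp4.1LG02g16330) at -5.33, KIN-14C (Cp4.1LG20g03970) at -4.98 and KIN-14S (Cp4.1LG00g10460) at -4.60. In the summed level of the kinesin list, the H libraries of 10 and 20 DAP overlapped.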

How the results depend on the processing

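The counts of 3571 higher and 3767 lower features in HL were 3491 and 3958 with DESeq2, 3430 and 3873 with RLE scaling, 3968 and 3512 with upper-quartile scaling, and 4116 and 4264 with all 18 libraries in 1 fit. Without the fold limit they were 6133 and 5912, the lower count in H was 4540 and the more positive differences between accessions numbered 2117. That count was 796 in a fit of the 12 libraries of 10 and 20 DAP, and the more negative differences numbered 929 where every library needed at least 10 counts. Leaving out 1 library gave 3248 to 3840 higher and 3524 to 3897 lower in HL, 2001 to 4821 higher and 1470 to 4040 lower in H, 991 to 1561 more positive and 1211 to 2076 more negative differences, and 8 to 9 higher and 4 to 7 lower secondary wall orthologs. With the replicate number as a block, 3473 features were higher and 3704 lower in HL, and 11 orthologs were higher and 4 lower. Same-numbered libraries of both stages correlated at 0.034, 0.025 and 0.11 in their deviations, and differently numbered ones at -0.079 to 0.068. With 3 libraries a stage, these values cannot tell whether same-numbered libraries share plants or a batch. No named gene reversed its direction, and other features were not checked for this. The balance of the counts did reverse: more features were higher than lower in HL with upper-quartile scaling or without the fold limit, more were lower than higher in H without it (4405 higher and 4540 lower) or with at least 10 counts in every library (2121 and 2203), and more differences were positive than negative without it (2117 and 1848). Of 372 named genes called in HL, up to 17 fell below a threshold under a single alternative. In all, 141 values for named genes were below it, against 5057 that kept their call or stayed uncalled. Many of these genes were named for large changes without overlap, and a gene not tested in an alternative was not counted as lost. Of all 7338 features called, 5831 (79.5%) were called in every fit that left out 1 library. The cause of the moved counts was not tested.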

Other observations

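Of 36 autophagy genes, 3 were higher (8.3%) and 2 lower (5.6%) at 20 DAP in HL coats, beside 16.9% and 17.9% of all features. The count lower was 1 without 10 DAP replicate 1 or 3 or without 20 DAP replicate 2. Of 27 tubulins, 1 was higher and 1 lower (3.7% each), but 2 were higher without 10 DAP replicate 1 or 20 DAP replicate 3 and 3 were lower without 20 DAP replicate 1. Of 89 bHLH factors, 22 were higher (24.7%) and 23 lower (25.8%), beside 16.9% and 17.9% of all features. Genes of the GATA and CONSTANS-like list had 12 of 42 higher and 8 lower, with CONSTANS-LIKE 16 (Cp4.1LG01g23670) at a log2 fold change of 4.19 ± 0.26 and CONSTANS-LIKE 5 (Cp4.1LG04g12840) at -5.91 ± 0.47. Both genes named GATA transcription factor 5 changed, Cp4.1LG14g01630 by 4.37 ± 0.53 and Cp4.1LG05g12840 by -5.33 ± 0.32. Of 726 tested features outside the annotation, 157 were higher (21.6%) and 174 lower (24.0%).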
